A study of Mus musculus with 6 samples.

Results

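Claudins and the scaffold proteins of the tight junction were followed in mouse ovarian surface epithelial (MOSE) cells, the layer that covers the ovary, grown as 2 stable lines. MOSE-NEO is the reference line, and MOSE-PAX8 is the line made to overexpress the paired-box factor PAX8, known from the Mullerian duct, thyroid and kidney. Both lines were held under the antibiotic G418, and total RNA of 3 libraries per line was sequenced. The labels do not say whether a line is a clone or a pool, or whether its 3 libraries came from separate cultures, so the spread between libraries may be technical. The set holds 9 of the 25006 genes in the count tables: the claudins Cldn1, Cldn3, Cldn4, Cldn7, Cldn12 and Cldn15, occludin (Ocln), and the zonula occludens scaffolds Tjp1 (ZO-1) and Tjp3 (ZO-3). They were chosen by gene family with the counts of these same 6 libraries and the difference between the lines in view, so their own differences are given as a description and support no test.

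Tight junctions seal the space between epithelial cells near the apical border. Claudins form the strands and set which ions and small molecules pass, some sealing and some forming pores. Occludin lies in the same strands, and PDZ-domain scaffolds such as ZO-1 and ZO-3 bind claudin tails on the cytoplasmic side and tie them to actin. The ovarian surface epithelium is a flat, mesothelium-like layer known for weak junctions and little E-cadherin, while claudins such as CLDN3, CLDN4 and CLDN7 are known for their high levels in many epithelial ovarian cancers.

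Libraries held between 23623762 and 36367825 counts, and the Pax8 gene had at most 1 count in a MOSE-NEO library and between 2570 and 3544 in the MOSE-PAX8 libraries. Markers of the ovarian surface ranged widely in level. Abundant in both lines were the uroplakin gene Upk3b with 4317 and 2655 CPM, Wt1 with 1175 and 721 CPM and the keratin gene Krt18 with 661 and 584 CPM (means of MOSE-NEO and MOSE-PAX8). Others were low in both, with 0.278 and 0.405 CPM of Krt19, 0.473 and 0.495 CPM of Lhx2 and 0.0357 and 0.23 CPM of Lhx9. Aldh1a2, with 42 CPM in MOSE-NEO, fell to a single read over all of MOSE-PAX8 (edgeR adjusted p = 6.44e-07). CPM, here scaled with TMM factors, gives the counts of a gene relative to the size of its library. Of the 17 genes of that marker list 16 were tested in the edgeR fit, and 10 were lower in MOSE-PAX8 and 1 higher. Over all genes tested 16.1% were lower and 17.9% higher. The epithelial genes Cdh1 (E-cadherin) and Epcam were absent or nearly so. Cdh1 had 1 and 3 counts in the MOSE-NEO and MOSE-PAX8 libraries together, and Epcam had 0. Other epithelial and junction genes of the lists below ranged from 0 counts (Ovol2) to 2228 and 1277 CPM (the JAM-A gene F11r). The keratin gene Krt8, the partner of Krt18, had only 0.788 and 0.317 CPM and was called lower (edgeR adjusted p = 0.019). Krt8 has pseudogene copies, and whether they affected its count was not tested. Krt7, another keratin gene of the list, had 1910 and 1038 CPM. The 7 endothelial markers summed to between 0.348 and 1.03 CPM in MOSE-NEO and between 0.22 and 0.524 CPM in MOSE-PAX8, with Cdh5 and Erg at 0. The 7 leukocyte markers summed to between 9.09 and 16.8 CPM and between 8.86 and 10.2 CPM, with Adgre1 at 0. Within that list Ptprc rose, from 1 count in MOSE-NEO to 196 in MOSE-PAX8, and Csf1r fell 2.52-fold (edgeR adjusted p = 0.000103 and 0.00373). The 8 granulosa and theca markers summed to between 442 and 541 CPM and between 374 and 414 CPM, most of it Star, with Fshr and Cyp19a1 at 0. Foxl2 of that list rose, from 1 count to 182 (edgeR adjusted p = 0.000117), while Star and Inha fell 1.28-fold and 1.31-fold (0.0282 and 0.0114). The 7 stromal fibroblast markers summed to between 19902 and 23255 CPM in MOSE-NEO and between 12400 and 13187 CPM in MOSE-PAX8. Collagen genes such as Col3a1 made up most of the stromal sum, while Pdgfra had at most 5 counts in a library. Whether other cell types had a part in the levels below was not tested.

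Cldn1 went from near absence to a clear signal. Claudin-1 is a sealing claudin of epidermis and many other epithelia. Its gene lies on chromosome 16 (ENSMUSG00000022512, 26356642 to 26371841, mm10, minus strand). The reference libraries 1 to 3 held 1, 2 and 1 reads of it, against 1119, 935 and 1510 in those of MOSE-PAX8. The MOSE-NEO values are all at or under the level of 3 counts that a count of 0 still allows (0.0953 to 0.13 CPM), and the groups lie far apart. In MOSE-PAX8 the level was 35.5 ± 9.57 CPM (SD, n = 3), with library 3 at 46.5 CPM, 1.55 times the mean of the other 2. The ratio of the lines over all counts was 748, with an exact 95% counting interval of 292 to 2745 that covers counting error only. The fitted log2 fold change was 9.43 ± 0.37 (SE), and between 9.18 and 9.92 with 1 library left out in turn; a fitted value against so few counts leans on the prior count. In bulk RNA, expression in more cells and more RNA per cell cannot be told apart.

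Cldn15 and Cldn3 were the most abundant claudins of both lines per kb of exon, and both were lower in MOSE-PAX8. Claudin-15 forms cation pores and is best known from the small intestine, and claudin-3 is a sealing claudin. Cldn15 (ENSMUSG00000001739, chromosome 5, 136966616 to 136975858) had 266, 277 and 276 CPM in the MOSE-NEO libraries 1 to 3 and 206, 163 and 145 CPM in the MOSE-PAX8 libraries 1 to 3. The 3 MOSE-NEO values lie within a few percent of each other, and all are above the highest MOSE-PAX8 value. The mean was 273 ± 6.26 CPM against 171 ± 31.3 CPM (SD, n = 3), a log2 fold change of -0.67 ± 0.12 (SE), or 1.59-fold lower. Cldn3 (ENSMUSG00000070473, chromosome 5, 134986214 to 134987472) had 77.6, 75 and 93.7 CPM in MOSE-NEO and 64.7, 39.9 and 38.4 CPM in MOSE-PAX8. These groups do not overlap either, but MOSE-PAX8 library 1 stands closer to MOSE-NEO, at 1.65 times the mean of the other 2 MOSE-PAX8 libraries. That library was also the highest of its line for Cldn15 (1.34 times the mean of the other 2) and Tjp3 (1.18 times). The log2 fold change of Cldn3 was -0.78 ± 0.19 (SE), or -1.07 without that library.

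Cldn12 was slightly higher in MOSE-PAX8. Claudin-12 is an unusual family member that lacks the PDZ-binding tail of most claudins and has been linked to calcium permeability. Its gene (ENSMUSG00000046798, chromosome 5, 5489537 to 5514958) had 92.6, 85.4 and 97.3 CPM in the MOSE-NEO libraries 1 to 3 and 109, 103 and 125 CPM in the MOSE-PAX8 libraries 1 to 3. The gap between the highest MOSE-NEO and the lowest MOSE-PAX8 library was smaller than the spread within either line. The log2 fold change was 0.29 ± 0.09 (SE), or 1.23-fold.

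Cldn4 and Cldn7, the family members most often named with Cldn3 in ovarian carcinoma, were not detected beyond single counts. Cldn4 (ENSMUSG00000047501, chromosome 5, 134945119 to 134946934) had 1 count, in MOSE-NEO library 2, and 0 in the other 5 libraries. Cldn7 (ENSMUSG00000018569, chromosome 11, 69964779 to 69967885) had 3, 2 and 1 in the reference libraries 1 to 3 and 0, 2 and 0 in those of MOSE-PAX8. Every one of these values is at or under 3 counts, so neither gene can be ordered between the lines at this depth, and a count of 0 in the 3 MOSE-PAX8 libraries together still allows 0.0298 CPM. The ratio for Cldn7 was 0.28, with an exact 95% counting interval of 0.0276 to 1.56.

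**Figure D1:**
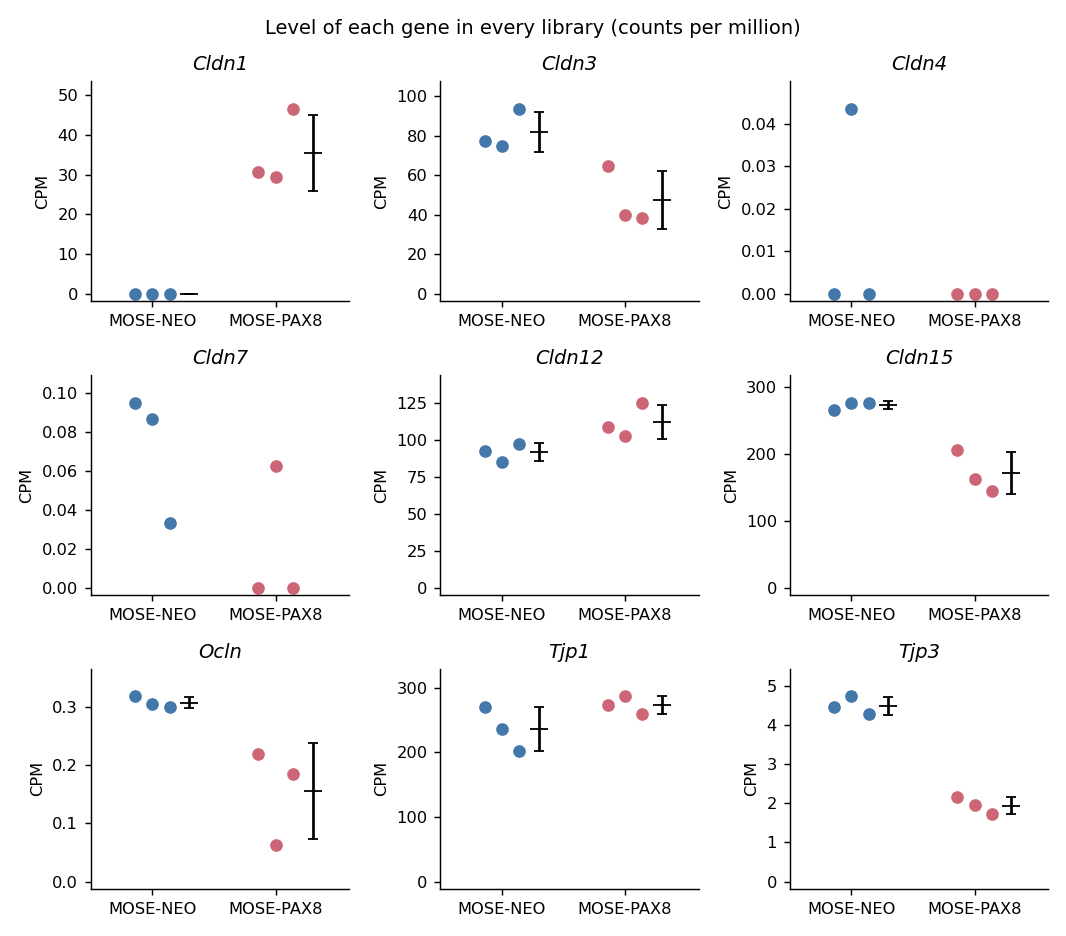
Level in CPM (vertical axis, linear and with its own scale per gene) of the 9 genes in each library, with MOSE-NEO in blue and MOSE-PAX8 in red, and the mean ± SD as a black bar except for Cldn4 and Cldn7. Cldn1 sits at or below 0.0869 CPM in MOSE-NEO and between 29.4 and 46.5 CPM in MOSE-PAX8, while the Cldn4 and Cldn7 points stand for at most 3 counts each.

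The bases just upstream of the Cldn1, Cldn3 and Cldn4 start sites are shown because Cldn1 is the claudin that appeared in MOSE-PAX8, while Cldn3 and Cldn4 start 39.3 kb apart on chromosome 5, 1 of them abundant and the other with 1 count in all. Each run is the 250 bases before the start in RefSeq (GRCm38.p6), 5′ to 3′ on the strand of the gene. They lie at chr16:26371840-26372089 (minus strand), chr5:134985964-134986213 (plus strand) and chr5:134946935-134947184 (minus strand). Capitals mark matches, on either strand, to GGGCGG (the GC box of SP and KLF factors) and CACCTG (an E-box of Snail and ZEB repressors); none of the 3 runs matched the other motifs searched.
Cldn1: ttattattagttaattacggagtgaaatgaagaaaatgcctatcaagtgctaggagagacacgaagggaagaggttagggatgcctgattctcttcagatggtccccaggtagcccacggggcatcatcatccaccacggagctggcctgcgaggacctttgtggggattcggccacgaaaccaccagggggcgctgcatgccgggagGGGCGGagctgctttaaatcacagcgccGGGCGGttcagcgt
Cldn3: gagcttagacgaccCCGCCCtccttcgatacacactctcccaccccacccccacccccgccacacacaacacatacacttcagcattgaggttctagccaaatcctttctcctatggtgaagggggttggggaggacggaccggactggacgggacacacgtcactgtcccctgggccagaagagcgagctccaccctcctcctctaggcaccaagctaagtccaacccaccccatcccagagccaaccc
Cldn4: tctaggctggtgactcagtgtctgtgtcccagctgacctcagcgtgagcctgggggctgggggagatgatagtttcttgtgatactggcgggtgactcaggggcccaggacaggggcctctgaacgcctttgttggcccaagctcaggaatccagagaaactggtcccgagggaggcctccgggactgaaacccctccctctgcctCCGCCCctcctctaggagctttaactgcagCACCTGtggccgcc

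In these windows Cldn1 had 2 GC boxes, beginning 42 and 14 bases before the start, and Cldn3 and Cldn4 had 1 each, 236 and 44 bases before it. The Cldn4 window also held 1 CACCTG, 14 bases before the start. Over all 9 genes RefSeq gave 14 windows of 250 bases, and 8 of the 9 genes had a GC box in at least 1 of them, against 32.7% of all 32851 upstream windows. CACCTG was found for 4 of the 9 genes (Cldn4, Cldn7, Ocln and Tjp3), against 17.2% of all windows, and GGAATG, the core bound by TEAD factors, for Cldn7 and Cldn15, against 12.6%. The core GCGTGAC of paired domains of the PAX8 kind occurred in 1 window, that of a second Cldn7 start, against 1.78% of all windows, and TATAAA in none, against 12.4%. Genes with several starts have more windows, so these gene counts are not on the same footing as the window shares. Within a window none of these matches overlapped another, but windows of 1 gene can overlap, and 2 Cldn12 windows hold the same GC box. The Cldn1 window had 14 CpG sites and an observed-to-expected CpG ratio of 0.745, above 76.7% of all windows, whose median was 0.373. Cldn15, the most abundant member per kb, had a ratio of 0.303, and Cldn4, the least abundant member, 0.291, so the ratio did not order these genes by level. These matches describe letters in short windows and say nothing of what binds there.

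Set per kilobase of exon, the only scale on which levels of different genes can be compared, the order of the members in MOSE-NEO began with Cldn15 at 128 ± 2.95 CPM per kb and Cldn3 at 65.2 ± 8.05 (SD, n = 3). Tjp1 followed at 30.3 ± 4.33 CPM per kb and Cldn12 at 21.7 ± 1.42. Tjp3 at 1.21 ± 0.0616 CPM per kb came next, and the other 4 had at most 0.0727. The libraries of neighbours in this order did not overlap down to Tjp3. In MOSE-PAX8 the first 4 places kept this order, at 80.6 ± 14.7, 37.9 ± 11.7, 35 ± 1.75 and 26.6 ± 2.75 CPM per kb, but Cldn3 and Tjp1 overlapped between libraries. Cldn1 took the fifth place there at 7.34 ± 1.98 CPM per kb, above Tjp3 at 0.524 ± 0.0585. Cldn1 thus stood above 1.19% of the tested genes in MOSE-NEO and above 51.2% in MOSE-PAX8, while Cldn15 stood above 98.4% and 96.6%.

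As a pool, claudin transcripts were fewer in MOSE-PAX8. Of the 33 claudin genes measured, 16 had 0 counts in all 6 libraries, and 5 had at least 100 counts in all libraries together. The fifth was Cldn34c1, with 15 to 22 counts in each library, the largest counts of any of the 27 claudins outside the set. Summed over the family, the level was 209, 211 and 228 CPM per kb in the MOSE-NEO libraries 1 to 3 and 181, 140 and 138 in the MOSE-PAX8 libraries 1 to 3. The groups do not overlap, and MOSE-PAX8 library 1 again lies nearest to MOSE-NEO. The share of Cldn15 was 59.5 ± 2.39% in MOSE-NEO and 52.6 ± 2.93% in MOSE-PAX8, that of Cldn3 30.1 ± 2.28% and 24.4 ± 3.5%, and that of Cldn12 10 ± 0.444% and 17.7 ± 3.6% (SD, n = 3). The Cldn3 shares overlap between the lines, with 28.2% in the lowest MOSE-NEO and 28.4% in the highest MOSE-PAX8 library. Cldn1 made up 3.5%, 4.34% and 6.95% of the pool in the MOSE-PAX8 libraries 1 to 3, against 0.00851% at most in MOSE-NEO. Cldn15 exceeded Cldn12 by a factor of 5.94 ± 0.448 per kb in MOSE-NEO and 3.07 ± 0.732 in MOSE-PAX8 (SD, n = 3).

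**Figure D2:**
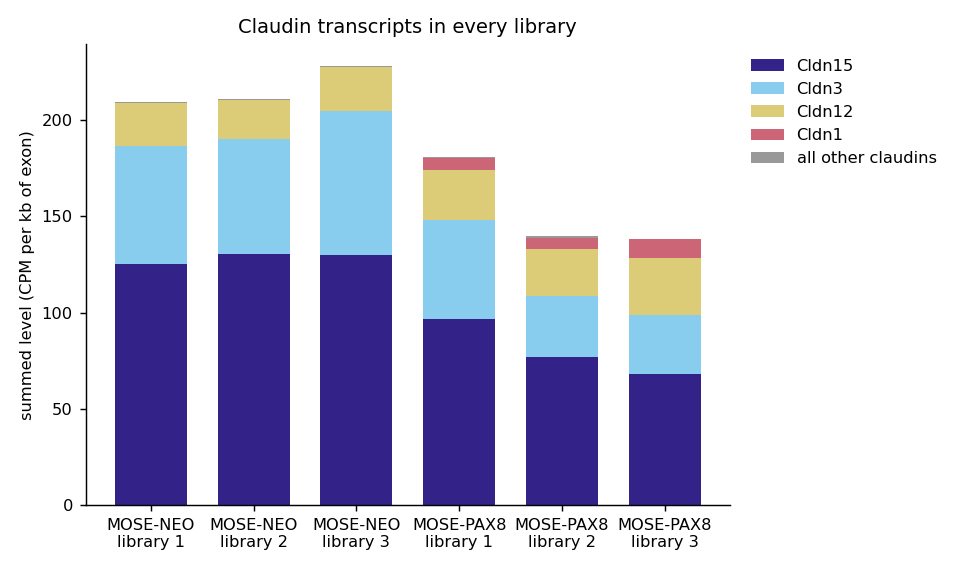
Summed level of all 33 claudin genes in each library (vertical axis, CPM per kb of exon, from 0), stacked by gene, with all claudins other than Cldn1, Cldn3, Cldn12 and Cldn15 pooled. Cldn15 and Cldn3 fill most of every bar, the 3 MOSE-PAX8 bars are shorter (138 to 181 against 209 to 228), and the Cldn1 band is visible in MOSE-PAX8 alone.

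Occludin, the first tight junction membrane protein to be described, was barely detected. Ocln (ENSMUSG00000021638, chromosome 13, 100496507 to 100552718) held 10, 7 and 9 reads in the reference libraries 1 to 3 and 8, 2 and 6 in those of MOSE-PAX8. At 0.299 to 0.318 CPM in MOSE-NEO and 0.0629 to 0.219 CPM in MOSE-PAX8 the libraries do not overlap, but MOSE-PAX8 library 2 is under the level of 3 counts. The ratio was 0.516, with an exact 95% counting interval of 0.259 to 0.999. Its relatives in the MARVEL family had fewer counts over each of the 2 lines than the 26 and 16 of Ocln. Tricellulin (Marveld2) had 1 and 4, and Marveld3 had 6 and 6.

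Of the 2 scaffold genes Tjp3 was lower in MOSE-PAX8, and Tjp1 was not called. Tjp1 (ENSMUSG00000030516, chromosome 7, 65296165 to 65527781) had 270, 237 and 203 CPM in the MOSE-NEO libraries 1 to 3 and 273, 287 and 260 CPM in the MOSE-PAX8 libraries 1 to 3. The groups overlap, because MOSE-NEO library 1 lies among the MOSE-PAX8 values. The log2 fold change was 0.21 ± 0.11 (SE). Tjp3, the ZO protein restricted mainly to epithelia (ENSMUSG00000034917, chromosome 10, 81273207 to 81291581), held 141, 109 and 129 reads in the reference libraries 1 to 3 and 79, 62 and 56 in those of MOSE-PAX8. In CPM this was 4.48, 4.74 and 4.28 against 2.16, 1.95 and 1.73, with a wide gap between the lines. The log2 fold change was -1.21 ± 0.18 (SE), or 2.31-fold lower. Tjp3 overlaps Apba3 on the opposite strand, which had 3098 and 3516 counts, and reads of the 2 genes cannot be told apart where counting ignored strand.

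Of the 9 members 6 passed the low-count filter, and Cldn4, Cldn7 and Ocln did not. Cldn1 passed it through MOSE-PAX8 alone. The edgeR fit across all genes called 5 of these 6 at an adjusted p below 0.05, with Cldn1 and Cldn12 higher and Cldn3, Cldn15 and Tjp3 lower, and in the same 5 the libraries of the lines did not overlap. Among all 12313 genes tested 33.9% were called, 17.9% higher and 16.1% lower, and in 47.6% the libraries did not overlap. Since the members were chosen with this comparison in view, nothing is read from their count. Cldn3 lost its call without MOSE-PAX8 replicate 3 (log2 fold change -0.65, edgeR adjusted p = 0.0516). Cldn12 lost its call without MOSE-NEO replicate 1 or 2 (log2 fold changes of 0.29 and 0.23, edgeR adjusted p = 0.084 and 0.141). It also lost it without MOSE-PAX8 replicate 1 or 3 (0.32 and 0.21, edgeR adjusted p = 0.0762 and 0.166), and with RLE factors and all libraries kept (0.28, edgeR adjusted p = 0.0537). Tjp1 was called without MOSE-NEO replicate 1 (edgeR adjusted p = 0.0483, log2 fold change 0.31).

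The other genes of the tight junction differed in both directions. Of 67 other genes of strands, receptors, plaque and polarity complexes, 39 were tested, 9 were higher and 12 lower. Over all genes tested 17.9% were higher and 16.1% lower. The median log2 fold change of the 39 was -0.12, against 0.01 over all genes tested. The JAM-A gene F11r, whose product is an immunoglobulin-type receptor of the junction, had 2037, 2195 and 2451 CPM in the MOSE-NEO libraries 1 to 3. It fell to 1397, 1147 and 1287 CPM in the MOSE-PAX8 libraries 1 to 3, a log2 fold change of -0.8 ± 0.11 (SE, edgeR adjusted p = 0.000841). Cxadr, the coxsackievirus and adenovirus receptor, rose 1.28-fold from 263 ± 3.98 to 338 ± 8.4 CPM (SD, n = 3). Both angulin genes tested, which mark contacts of 3 cells, fell: Lsr 1.54-fold from 460 ± 49.3 to 299 ± 26.2 CPM and Ildr2 1.26-fold from 1286 ± 72.2 to 1017 ± 80.4 CPM (SD, n = 3). Ildr2 lost its call without MOSE-NEO replicate 1 or 3 (edgeR adjusted p = 0.0594 and 0.0631) and without MOSE-PAX8 replicate 2 or 3 (0.0641 and 0.0904). Of 7 JAM and related receptors 4 were tested, 1 rose and 1 fell. Among the 21 other claudins listed only Cldn34c1 was tested, at 0.59 and 0.564 CPM and not called (edgeR adjusted p = 0.92), and Cldn20, the next, had 0.24 and 0.233 CPM.

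The cytoplasmic plaque holds the adaptor and scaffold proteins under the strands. Of 20 genes listed 19 were tested, with a median log2 fold change of -0.21. Among these 19, 5 rose and 6 fell, against 17.9% and 16.1% of all genes tested. Amot, the angiomotin that links junctions to YAP control, had 0 counts in every MOSE-NEO library and 192, 233 and 256 in the MOSE-PAX8 libraries 1 to 3, at least 190-fold higher against 3 counts over the MOSE-NEO group. Cgnl1 (paracingulin) rose 2.72-fold, from 156, 122 and 180 CPM to 431, 382 and 433 CPM, while its relative Cgn (cingulin) had 31.6 and 26 CPM and was not called (edgeR adjusted p = 0.121). The scaffolds of the MAGI family split: Magi1 rose 2.02-fold to 40.4 ± 1.19 CPM, Magi2 fell 4.31-fold to 2.49 ± 0.0379 CPM and Magi3 fell 1.55-fold to 137 ± 7.04 CPM (SD, n = 3). Patj, a multi-PDZ protein of the Crumbs complex that binds ZO-3, fell 1.92-fold from 29.1 ± 1 to 15.1 ± 0.566 CPM (SD, n = 3). Sympk (symplekin) rose 1.75-fold, and Rab13, a small GTPase of junction traffic, fell 1.37-fold. Their edgeR adjusted p ran from 2.7e-05 (Magi2) to 0.00476 (Rab13). Sympk (log2 fold change 0.81) lies on chromosome 7, where the median over 908 tested genes was 0.27. Rab13 and Magi3 lie on chromosome 3, for which no such median was worked out.

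Polarity complexes position the junction at the apical border. Of 14 such genes 13 were tested, with a median log2 fold change of 0.05. Among these 13, 3 rose and 3 fell, against 17.9% and 16.1% of all genes tested. Pard6g rose 3.95-fold from 0.674 to 2.68 CPM and Llgl2, a basolateral polarity protein, 1.6-fold (edgeR adjusted p = 0.00149 and 0.00773). Prkcz, an atypical protein kinase C, fell 1.81-fold and Mpp5 (PALS1), the partner of Patj, 1.31-fold (0.000413 and 0.00672). Pard6a, 1.24-fold higher (edgeR adjusted p = 0.0414), lost its call without any 1 of the 6 libraries (0.0544 to 0.14). It also lost it with DESeq2 (0.0876), with no low-count filter (0.0756) and with the replicate number as a block (0.0789). Crb2, 1.26-fold lower (0.0306), lost its call without MOSE-NEO replicate 1 or 2 (0.0756 and 0.0878) and without MOSE-PAX8 replicate 1 or 3 (0.1 and 0.131).

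**Figure D3:**
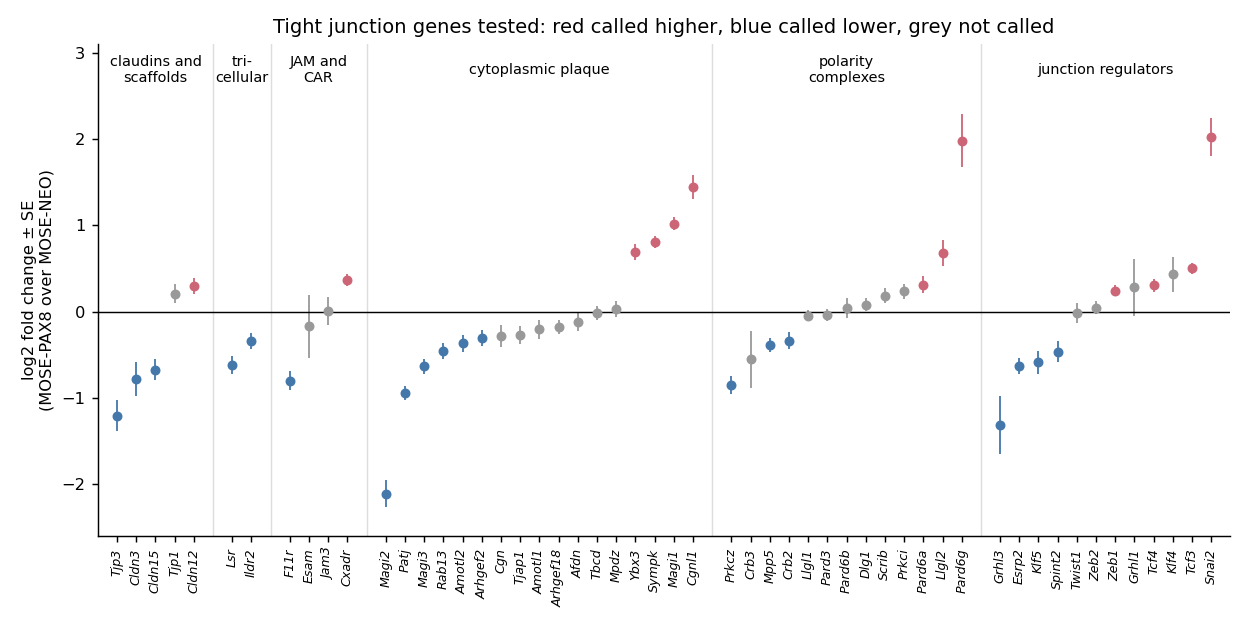
Log2 fold change of MOSE-PAX8 over MOSE-NEO (vertical axis) with its standard error as a bar for each tested gene of the set, of the other tight junction lists and of the regulator list, in red where called higher, blue where called lower and grey where not called. Cldn1 (9.43) and Amot (0 counts in MOSE-NEO) lie off the scale, and Cldn34c1 and 1 plaque gene not reported here are left out; Magi2 has the lowest value shown (-2.11) and Snai2 the highest (2.02).

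Regulators known to act on claudin and occludin genes were measured as a further list. That list also holds epithelial genes of other roles, such as Cdh1, Epcam, Esrp2 and Spint2. The repressors bind E-boxes in epithelial promoters, and grainyhead-like and ovo-like factors maintain junction genes. Of 25 listed 12 were tested, with a median log2 fold change of 0.14. Among these 12, 4 rose and 4 fell, against 17.9% and 16.1% of all genes tested. Snai2 (Slug) rose 4.07-fold from 1.35 ± 0.114 to 5.52 ± 1.25 CPM, Tcf3, which encodes an E-box binding protein, 1.42-fold, Tcf4 1.24-fold and Zeb1 1.18-fold (SD, n = 3). Their edgeR adjusted p was 0.000242, 0.000599, 0.014 and 0.0253. Tcf3 (log2 fold change 0.5) lies in the 2 Mb at lower coordinates than Tjp3. There 49 of 79 tested genes were called higher, with a median log2 fold change of 0.4. Tcf4 lost its call without MOSE-PAX8 replicate 3 (0.0703), and Zeb1 with no low-count filter (0.0504) and without MOSE-NEO replicate 2 or 3 (0.0851 and 0.0604) or MOSE-PAX8 replicate 1 or 3 (0.091 and 0.0848). The splicing factor gene Esrp2 fell 1.55-fold, Klf5 1.5-fold and the protease inhibitor gene Spint2 1.38-fold (edgeR adjusted p = 0.00112, 0.0102 and 0.0159), the last not without MOSE-PAX8 replicate 3 (0.0675). The fourth to fall was Grhl3, from 0.902 to 0.362 CPM. Klf5 lies on chromosome 14, for which no median was worked out. Grhl2 had 2 and 3 counts in the 2 lines, and Ovol2, Esrp1 and Epcam had 0. The count of risen regulators was 2 without MOSE-PAX8 replicate 3.

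The surroundings of each member on its chromosome were set beside the member. Within 5 Mb on either side, the median log2 fold change of tested genes was between -0.05 and 0.11 around the members on chromosomes 5, 11, 13 and 16. Around Tjp1 it was 0.3 over 27 genes, of which 15 were called higher, and over all 908 tested genes of chromosome 7 it was 0.27, against 0.21 for Tjp1 itself. Around Tjp3 it was 0.19 over 157 genes. In the 2 Mb at lower coordinates than Tjp3, 49 of 79 tested genes were called higher and 1 lower, with a median of 0.4, whereas in the 2 Mb above it 3 of 31 were higher and 3 lower, with a median of -0.02. Of the genes nearest to Tjp3, Pip5k1c, Apba3, Mrpl54 and Cactin had values of -0.03, -0.08, -0.1 and 0.04, and none was called. These 2 Mb windows were set after the values had been seen. Over all genes tested 17.9% were called higher and 16.1% lower.

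Of the 4 genes nearest to Cldn1, 1 was called. Cldn16 and Tmem207, 91.3 and 155 kb from the Cldn1 start, had 0 counts in all libraries. Il1rap, 210 kb away and abundant, had a log2 fold change of 0.09 ± 0.11 (SE) and was not called. P3h2, which encodes a collagen prolyl hydroxylase and starts 266 kb on the other side, went from 34 to 1090 counts, a log2 fold change of 4.76 ± 0.33 (SE, edgeR adjusted p = 2.26e-05). The other close neighbours of Cldn3, Abhd11, Stx1a and Mettl27, were not called (edgeR adjusted p = 0.453, 0.164 and 0.127). The neighbours Fis1 and Plod3 of Cldn15 were 1.2-fold and 1.27-fold lower (edgeR adjusted p = 0.0307 and 0.0056), against 1.59-fold for Cldn15.

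**Figure D4:**
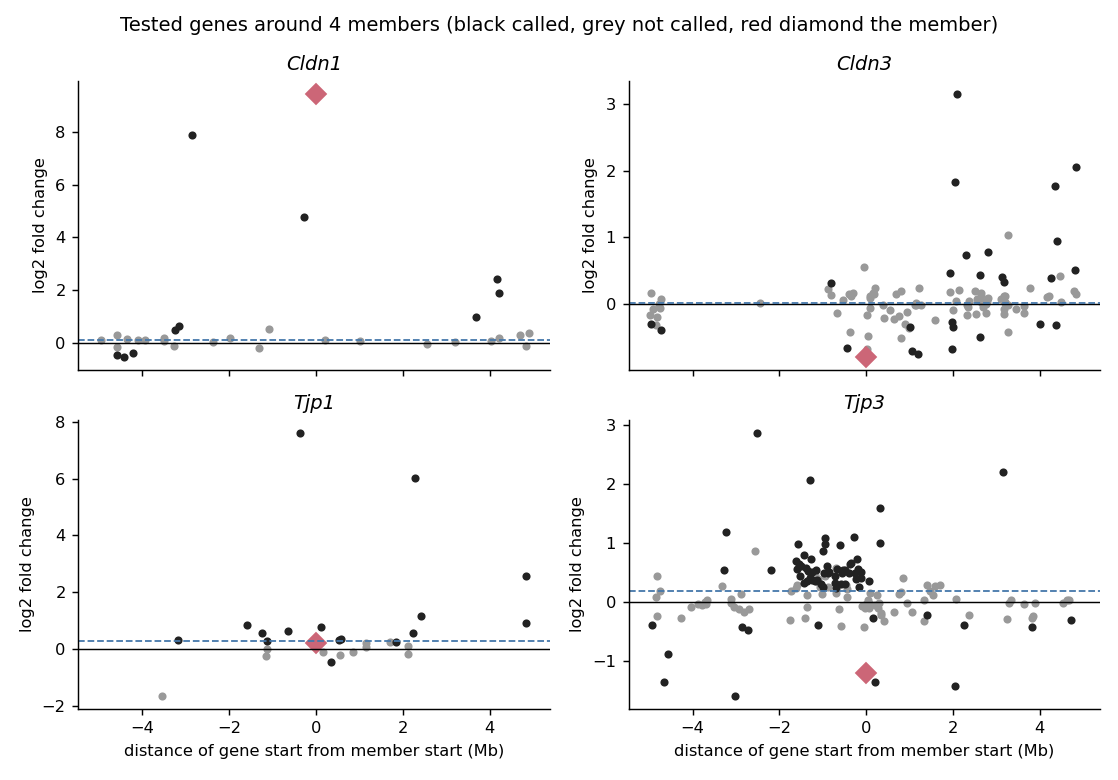
Log2 fold change of MOSE-PAX8 over MOSE-NEO (vertical axis, scale set per panel) of every tested gene within 5 Mb of Cldn1, Cldn3, Tjp1 and Tjp3, by distance of its start from that of the member (horizontal axis, Mb, toward higher coordinates to the right); black points were called, grey points were not, the red diamond is the member and the dashed line the median of the others. A raised cluster of black points lies at lower coordinates than Tjp3, which itself lies at -1.21, and Tjp1 lies near the dashed line of its panel, at 0.21 against 0.3.

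The genes whose pattern over the 6 libraries was nearest to that of a member were found among 11004 protein-coding genes of at least 1 CPM, by the root mean square distance between log2(CPM + 0.1) profiles centred on each gene's mean. For Cldn1 they were Klhdc8a (distance 0.32) and Crispld2 (0.327), which went from at most 0.0664 CPM in MOSE-NEO to 23.9 ± 4.28 and 29.7 ± 8.13 CPM in MOSE-PAX8 (SD, n = 3). No gene came within 0.2 of Cldn1. Its MOSE-NEO libraries held 1, 2 and 1 counts, so single reads move this distance. The number is therefore not comparable with those of the other 2 members below. For Tjp3 they were Epb41l1, a band 4.1 family gene of the membrane skeleton (0.0462), and Csgalnact1, a chondroitin synthesis enzyme (0.0616), and 144 genes lay within 0.2. For Cldn3 they were Tmem163 (0.11), a zinc transporter gene, and Dixdc1 (0.119), a Wnt pathway gene, with 54 genes within 0.2.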

How the data were processed

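Total RNA of 3 MOSE-NEO and 3 MOSE-PAX8 libraries was analysed from the counts the authors deposited, whole reads per gene for 25006 Ensembl identifiers. cutadapt 1.13, STAR, HTSeq 0.6.1p1, DESeq2 and mm10 are named in the submitters' processing notes. Strand setting, annotation and handling of multi-mapped reads were not given in the sources used here. Symbols, positions and exon lengths came from GENCODE M21 (24991 identifiers matched), upstream sequences from RefSeq (GRCm38.p6, all 9 members matched).

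MOSE-PAX8 was compared with MOSE-NEO across all genes by the quasi-likelihood test of edgeR 4.0.16 (R 4.3.3) with TMM factors, filterByExpr and Benjamini-Hochberg adjustment, calling genes at an adjusted p below 0.05. The code of the fit was tried on simulated counts. These had far fewer changed genes than were called here, so the error rate in these data was not tested. SE was worked back from the test statistic. Levels per kb use the union of exons. Members and lists were chosen with earlier results of these data known. Named besides the members were up to 4 called genes per direction and list with at least 1 CPM, or the 2 most abundant where none was called, and the 2 nearest profiles of the 3 members with the largest change; others were chosen after their values were seen. Alternatives were DESeq2 1.42.0, limma-voom (limma 3.58.1), RLE and upper-quartile factors, a block for the replicate number, no filter, at least 1 CPM in 3 libraries, leaving out each library, and the longest transcript as length. Replicates of a line differed by 13.2 to 41.7 times the counting variance, so each was kept. The values of 2 genes of the lists are not reported here.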

Additional observations from a re-analysis of the deposited data

How the results depend on the processing

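Over the 13 alternatives Cldn1, Cldn15 and Tjp3 kept their direction and call (log2 fold changes of 9.09 to 9.92, -0.83 to -0.56 and -1.29 to -1.13). This is a description only. The members were chosen with this comparison in view, so a kept call is no added support. The number of members called higher was 1 with RLE factors, where Cldn12 had an edgeR adjusted p of 0.0537, and ranged from 1 to 2 with 1 library left out; called lower it ranged from 2 to 3. Over all genes, calls with 1 library left out ranged from 1545 to 2065 higher and from 1314 to 1843 lower. The other tight junction genes had 8 to 9 higher and 8 to 13 lower over all alternatives. Cldn34c1, not called, changed sign when either MOSE-NEO replicate 2 (log2 fold change 0.063) or MOSE-PAX8 replicate 3 (0.072) was left out, and its lowest value was -0.19; it was not tested at a minimum of 1 CPM.

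With the replicate number as a block 2070 genes were higher and 1863 lower, and 2 members higher and 3 lower. The numbers are not known to pair libraries: deviations of same-numbered libraries correlated across genes at -0.465, 0.054 and 0.402. Those of differently numbered libraries ran from -0.645 to 0.627. With the longest transcript as length Cldn15 exceeded Cldn12 by 5.88 and 3.04 times per kb. Depth limits Cldn4, Cldn7 and Ocln.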
